A study of Mus musculus with 9 samples.

Results

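10 genes of the Nodal and bone morphogenetic protein (BMP) pathways were described across untreated, control-transfected and Stag3-depleted mouse embryonic stem cells. The genes were chosen by symbol, not by their values in these libraries. They are Nodal, Lefty1, Lefty2, Tdgf1, Smad7 and Skil on the Nodal side and Bmp4, Id1, Id2 and Id3 on the BMP side. All 10 were among the 16636 genes of the deposited table, and all 10 passed the filter on low counts.

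RNA was sequenced from wildtype E14, an established mouse embryonic stem cell line, kept naive on fibronectin in 2i/LIF medium. Every group, untreated cells included, grew with the MEK inhibitor PD0325901, the GSK3 inhibitor CHIR99021, LIF and serum replacement. The siLuc cells received a control siRNA against luciferase for 48 hours and the siStag3 cells an siRNA against Stag3, a subunit of the cohesin ring, each in 2 transfections of 50 pmol with a lipid reagent. Each of the 3 groups had 3 libraries, given as biological replicates, and all came from a single cell line. The untreated cells received neither siRNA nor, as far as the labels say, the lipid reagent, so lipid, siRNA and control sequence cannot be told apart in a comparison with them.

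Nodal and the Activins are secreted ligands of the TGF-beta family. They bind type I and type II receptor kinases, Nodal with the help of the co-receptor Cripto (Tdgf1), and lead to phosphorylation of SMAD2 and SMAD3, which join SMAD4 and act on chromatin with DNA-binding partners such as FOXH1. BMPs signal through other type I receptors to SMAD1, SMAD5 and SMAD9, whose best known direct targets are the Id genes, inhibitors of basic helix-loop-helix factors. In embryonic stem cells the Nodal branch is active through ligands that the cells make themselves, with Lefty genes, Smad7 and Skil as feedback regulators. BMP acts with LIF, and its Id targets are linked to self-renewal.

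Lefty1 and Lefty2 are the closest pair of sequences among these genes, and the split of reads between them bears on the values below. Both lie on chromosome 1 (GRCm38). Their coding sequences in GENCODE M21 were 1104 bases each, and 91.85% of positions were identical. The longest identical stretch of the pair was 140 coding bases, from position 493 to 632. Of the 31-base stretches of the longest Lefty1 transcript, 25% also occurred in Lefty2. For Lefty2, 17.4% occurred in another gene, nearly all in Lefty1. Tdgf1 shared 17.4% of its stretches, most of them with the pseudogene Tdgf1-ps1. These 3 genes are therefore the ones whose counts could have been divided between copies by the quantification, and their levels are uncertain to that extent. Smad7, Skil, Id1 and Id3 shared none, and Id2, Bmp4 and Nodal shared 2.01%, 0.894% and 0.145%. Bmp4 overlaps 2 gene models on the opposite strand, Gm15217 and Gm15222, and the strand setting of the counting is not given in the sources used here.

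Of the 10 genes, 5 had a promoter entry of 300 bases in RefSeq (GRCm38.p6): Id3, Tdgf1, Nodal, Id2 and Bmp4. Those of Id3 and Tdgf1 are printed because these genes passed the test in a comparison below. Capitals mark the SMAD box CAGAC or its reverse complement GTCTG.
Id3, chr4:136143572-136143871, plus strand: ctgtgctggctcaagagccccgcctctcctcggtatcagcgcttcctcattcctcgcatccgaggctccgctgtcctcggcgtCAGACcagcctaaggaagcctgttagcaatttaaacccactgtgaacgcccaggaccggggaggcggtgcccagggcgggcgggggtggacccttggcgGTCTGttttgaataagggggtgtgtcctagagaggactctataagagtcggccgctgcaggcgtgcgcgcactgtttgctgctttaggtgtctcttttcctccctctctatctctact
Tdgf1, chr9:110946109-110946408, minus strand: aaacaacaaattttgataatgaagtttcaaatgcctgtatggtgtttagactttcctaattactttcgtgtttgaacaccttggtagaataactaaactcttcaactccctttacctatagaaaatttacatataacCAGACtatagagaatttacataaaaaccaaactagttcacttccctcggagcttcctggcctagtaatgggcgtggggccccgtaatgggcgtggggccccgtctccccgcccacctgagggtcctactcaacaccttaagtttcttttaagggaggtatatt
The Id3 promoter held 2 matches, starting at -167 and -68 from the start site, and the Tdgf1 promoter 1, at -113. The same 5 letters, on either strand, occurred in 49.6% of 32851 promoters of this length, so such a match is common. The GC-rich SMAD element GGCGCC, present in 11.9% of promoters, occurred once in the Id2 promoter, at -231. The FOXH1 element AATCCACA, searched on both strands and present in 0.855% of promoters, was in none of the 5. None of the 3 motifs was in the Nodal or Bmp4 window. No binding was measured in these libraries, so these matches describe the letters only.

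Libraries held 29332436 to 44527534 counts. At these totals, 3 counts, taken as the smallest amount told from 0, equal 0.065 to 0.099 CPM (counts relative to the library total, scaled by its TMM factor), for counting error only. Column headers give each library a set number, and each group had 2 libraries of Set 1 and 1 of Set 3. What a set is was not given in the sources used here. The set was a term of the edgeR quasi-likelihood test used below, with Benjamini-Hochberg adjustment over all genes and a threshold of 0.05. The term was chosen because libraries were known to separate by set from earlier results of these data. In this fit the sets differed in 6076 of 14246 genes tested (42.7%). Stag3, the target of the siRNA, had a mean level of 25.7 ± 2.54 CPM without siRNA, 24.2 ± 2.20 with siLuc and 14.8 ± 1.12 with siStag3 (SD, n = 3). It was lower in siStag3 than in siLuc by 0.71 on the log2 scale (log2 fold change -0.71, SE 0.0722, adjusted p = 0.00205, edgeR). All 7 defining markers of embryonic stem cells were present, with a summed level of 4370 to 4810 CPM per library. Markers of other cell types were low but none of those in the table was at 0 in a whole group; Mesp1 was not in the table. Summed levels per library were 7.4 to 11.2 CPM for 4 mesoderm genes, 2.67 to 4.35 for trophoblast, 1.62 to 2.93 for primitive endoderm and 1.32 to 2.47 for fibroblasts.

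The Nodal side was expressed at higher levels than the BMP side. On a scale of CPM per kilobase of the longest transcript, the order of the untreated means was Tdgf1, Lefty2, Nodal, Lefty1, Smad7, Id3, Skil, Id1, Bmp4 and Id2. Tdgf1 stood at 168 ± 9.35 CPM per kilobase, far above the next genes. Lefty2 followed at 34.3 ± 9.56, Nodal at 31.8 ± 1.04 and Lefty1 at 27.9 ± 9.56. These 3 did not differ beyond their spread. Smad7 stood at 18.0 ± 1.37 and Id3 at 15.9 ± 5.09, also within their spread of each other. Skil, at 4.27 ± 0.446, was well below them. Id1 at 2.28 ± 0.411, Bmp4 at 1.91 ± 0.270 and Id2 at 1.72 ± 0.160 formed the low end and did not differ beyond their spread (all SD, n = 3). By the mean over all libraries, Tdgf1 ranked at percentile 98.3 of all genes in CPM per kilobase and Id2 at 41.1. The Nodal side ranged from percentile 55.7 for Skil upwards. On the BMP side Id3 alone, at 73.8, ranked above Skil.

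**Figure D1:**
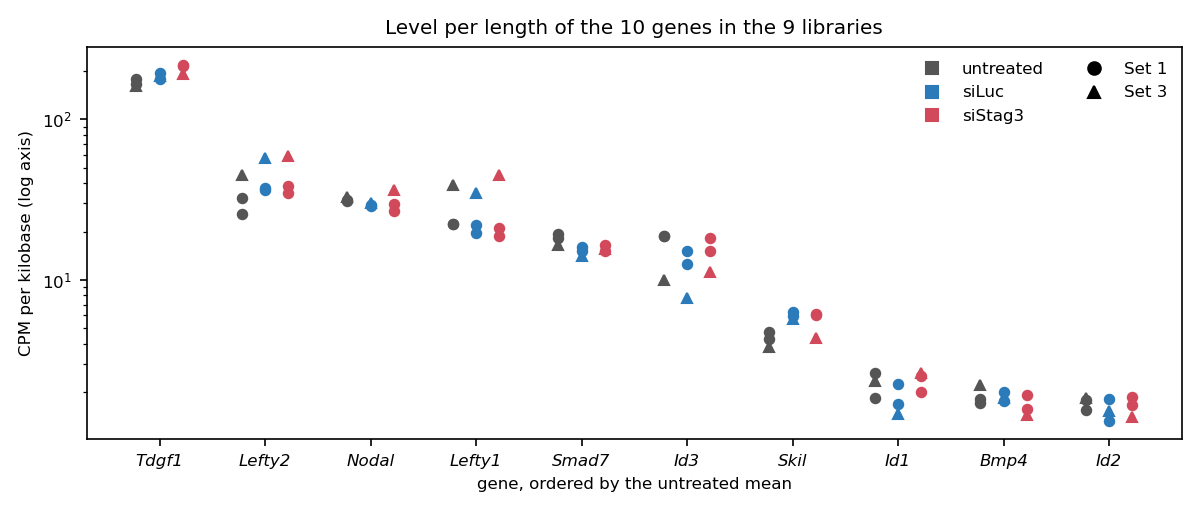
Level of each of the 10 genes in CPM per kilobase of its longest transcript (y axis, log scale) in each of the 9 libraries, with genes ordered by their untreated mean, colours for the groups and symbols for the sets. Tdgf1 stands above all others, Lefty1, Lefty2 and Id3 separate by set in each group, and Id1, Bmp4 and Id2 share the low end.

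Below, the 3 values of a group are given in the order Set 1 experiment 1, Set 1 experiment 3 and Set 3. The Set 3 library is of experiment 5 in untreated and siStag3 cells and of experiment 1 in siLuc cells. Within Set 3, a difference between siLuc and another group therefore cannot be told apart from a difference between experiments.

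Nodal, the ligand, was at a similar level in the 3 groups. Its level was 66.2, 64.7 and 69.0 CPM in untreated cells, 61.5, 60.3 and 62.9 in siLuc cells and 62.1, 56.6 and 76.5 in siStag3 cells. The 3 siLuc libraries lay below the 3 untreated ones by a narrow margin, while siStag3 held both the lowest and the highest library of the 9. Neither difference from untreated cells passed the test (siLuc -0.11, SE 0.0727, adjusted p = 0.320; siStag3 -0.04, SE 0.0726, adjusted p = 0.798, edgeR).

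Lefty1 and Lefty2 encode secreted inhibitors that bind Nodal or its co-receptor and are themselves targets of SMAD2/3. Lefty1 stood at 36.1, 36.3 and 63.0 CPM in untreated cells, 31.5, 35.6 and 56.1 in siLuc cells and 30.3, 34.2 and 73.0 in siStag3 cells. In each group the Set 3 library was the highest, and the groups overlapped. Lefty1 did not pass the test in siLuc (log2 fold change -0.13, SE 0.0920, adjusted p = 0.379) or siStag3 (-0.03, SE 0.0918, adjusted p = 0.882, edgeR) against untreated cells.

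Lefty2 was higher in both transfected groups than in untreated cells. Its level was 64.0, 79.7 and 110.5 CPM in untreated cells, 89.4, 92.8 and 142.6 in siLuc cells and 85.9, 94.8 and 146.4 in siStag3 cells. Groups overlapped across sets, because the untreated Set 3 library exceeded the Set 1 libraries of the other groups, but within each set every transfected library was above every untreated one. The log2 fold change was 0.35 in siLuc (SE 0.0747, adjusted p = 0.0226) and 0.36 in siStag3 (SE 0.0748, adjusted p = 0.0214, edgeR). Within Set 1 the differences in log2 CPM were 0.35 and 0.34, and within Set 3, with 1 library per group, 0.37 and 0.41. Both Lefty2 calls ended without the set term, with log2 fold changes of similar size (0.35, adjusted p = 0.646, and 0.36, adjusted p = 0.930), and in Set 1 alone (adjusted p = 0.0841 and 0.0594). Among 6 fits that left out 1 library, the siLuc call held in 1, without the untreated library of Set 1 experiment 3 (adjusted p from 0.00782 to 0.121). The siStag3 call held in 2, without that library or the siStag3 library of Set 3 (adjusted p from 0.00725 to 0.16).

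Because reads of the Lefty pair may be divided between the genes, their summed level was also taken, a sum chosen after the values were seen. It was 100.1, 116.0 and 173.5 CPM in untreated cells, 121.0, 128.4 and 198.7 in siLuc cells and 116.2, 128.9 and 219.4 in siStag3 cells. Within Set 1 the sum was higher by 0.21 in siLuc and 0.18 in siStag3 in log2 CPM, and within Set 3 by 0.20 and 0.34. Lefty2 made up 64.0%, 68.7% and 63.7% of the sum in the untreated libraries. It made up 73.9%, 72.3% and 71.8% in siLuc and 74.0%, 73.5% and 66.7% in siStag3. The share was thus higher in each siLuc library than in any untreated one, whereas siStag3 overlapped the untreated group through its Set 3 library. Whether the division of reads between the copies moved these shares was not tested.

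Tdgf1 encodes Cripto, the membrane-bound co-receptor that lets Nodal bind its receptors. Its level was 319.3, 345.7 and 311.1 CPM in untreated cells, 374.1, 345.3 and 356.6 in siLuc cells and 417.3, 421.6 and 371.6 in siStag3 cells. All 3 siStag3 libraries were above all 3 untreated ones, and siLuc overlapped both other groups. Tdgf1 was higher in siStag3 than in untreated cells by 0.31 (SE 0.0584, adjusted p = 0.0127, edgeR) and did not pass in siLuc (0.14, SE 0.0584, adjusted p = 0.139). Within Set 1 the siStag3 difference was 0.34 and within Set 3 it was 0.26. Without the set term its adjusted p was 0.446. The call held in 3 of 6 fits without 1 library and ended without untreated Set 3 or either siStag3 library of Set 1 (adjusted p from 0.00399 to 0.0983).

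Smad7 encodes an inhibitory SMAD that blocks the receptors and is induced by the pathway. Its place on the Nodal side is a choice of list, and whether its level followed that branch alone was not tested. Smad7 stood at 82.4, 78.0 and 70.8 CPM in untreated cells, 64.6, 68.6 and 60.2 in siLuc cells and 70.6, 64.4 and 66.4 in siStag3 cells. Every transfected library was below every untreated one, by a small margin in siStag3. Smad7 was lower in siLuc by a log2 fold change of -0.26 (SE 0.0625, adjusted p = 0.0375, edgeR), while the siStag3 difference of -0.20 did not pass (SE 0.0624, adjusted p = 0.124). The siLuc call ended under a GC correction (log2 fold change -0.11, adjusted p = 0.145), without the set term (adjusted p = 0.580), in Set 1 alone (adjusted p = 0.0659), with set and experiment as a block (adjusted p = 0.0638) and in each of 6 fits without 1 library (adjusted p from 0.0571 to 0.157). Without the siStag3 library of Set 3, the siStag3 difference passed (log2 fold change -0.24, adjusted p = 0.0305).

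Skil encodes SnoN, a co-repressor that binds SMAD2, SMAD3 and SMAD4 and is a target of the pathway it restrains. Its level was 28.6, 31.7 and 25.7 CPM in untreated cells, 42.2, 40.2 and 38.6 in siLuc cells and 41.5, 40.6 and 29.3 in siStag3 cells. All siLuc libraries were above all untreated ones. In siStag3 the 2 libraries of Set 1 lay at the siLuc level, and the Set 3 library lay among the untreated ones. Skil was higher in siLuc by a log2 fold change of 0.50, 141% of the untreated level (SE 0.0813, adjusted p = 0.00535, edgeR). In siStag3 it was higher by 0.37 (SE 0.0816, adjusted p = 0.0291), with 0.45 within Set 1 and 0.19 within Set 3. The siLuc call held in all 6 fits that left out 1 library, with adjusted p from 0.00832 to 0.0466, but not without the set term (adjusted p = 0.580). The siStag3 call ended without the set term (adjusted p = 0.721) and with set and experiment as a block (adjusted p = 0.0529), and held only without the siStag3 library of Set 3 among 6 such fits (adjusted p from 0.00176 to 0.191).

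**Figure D2:**
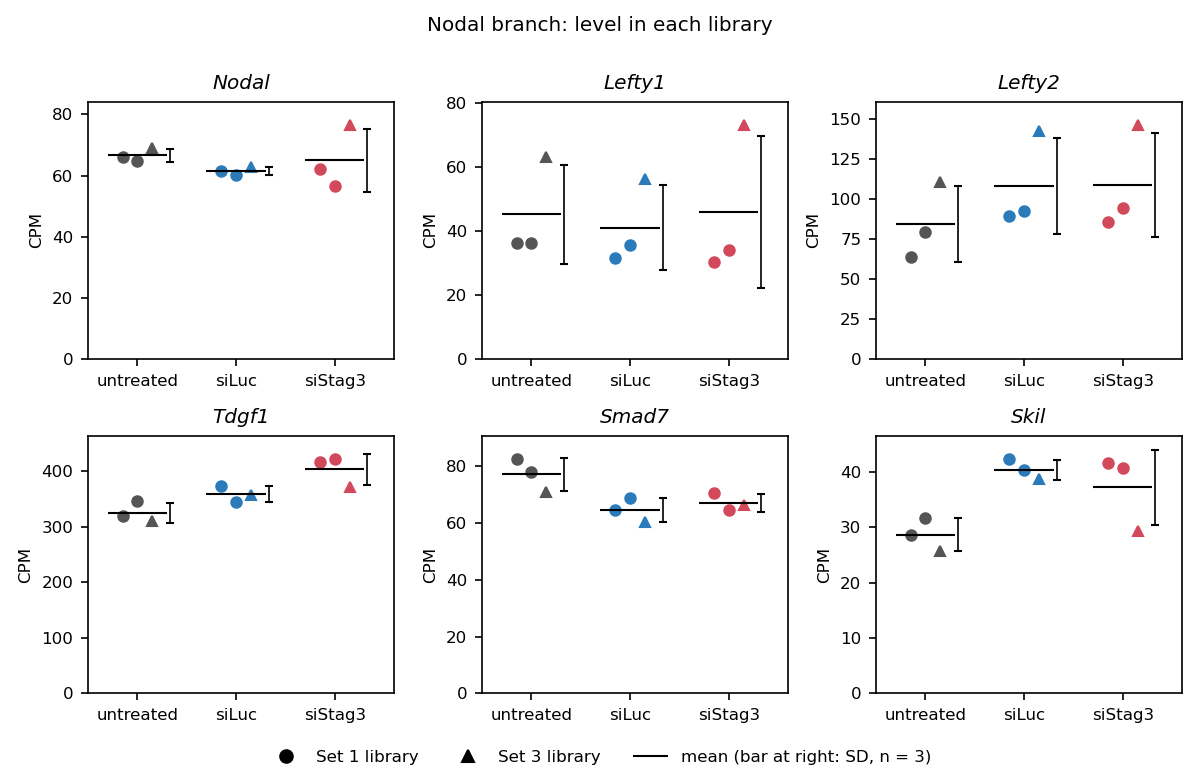
Level in CPM (y axis, from 0) of the 6 genes of the Nodal side in each library, with circles for Set 1 and triangles for Set 3, a line at the group mean and a bar for the SD (n = 3). Skil in siLuc and Tdgf1 in siStag3 lie wholly above the untreated libraries, Smad7 lies below them in both transfected groups, and Lefty1 and Lefty2 are highest in Set 3.

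The BMP side was represented by a weakly expressed ligand and 3 Id genes, of which only Id3 was well above the low end. Bmp4 stood at 3.73, 3.52 and 4.57 CPM in untreated cells, 3.66, 4.14 and 3.78 in siLuc cells and 3.23, 3.94 and 2.97 in siStag3 cells. These levels rest on 90 to 211 counts per library. The groups overlapped, and neither transfected group differed past the threshold (siLuc -0.03, SE 0.145, adjusted p = 0.905; siStag3 -0.23, SE 0.147, adjusted p = 0.454, edgeR).

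Id1, Id2 and Id3 encode proteins that pair with E proteins and keep them from binding DNA. Id1 stood at 2.13, 3.07 and 2.73 CPM in untreated cells, 2.61, 1.96 and 1.70 in siLuc cells and 2.33, 2.93 and 3.04 in siStag3 cells, from 54 to 126 counts. The siLuc group held the lowest library, and all groups overlapped. Its log2 fold change of -0.34 in siLuc had an SE of 0.194 and an adjusted p of 0.262 (edgeR).

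Id2 stood at 3.03, 3.52 and 3.62 CPM in untreated cells, 3.56, 2.59 and 3.02 in siLuc cells and 3.26, 3.65 and 2.77 in siStag3 cells. No group stood apart (adjusted p = 0.538 in siLuc and 0.830 in siStag3, edgeR). At these counts, the 95% intervals of the log2 fold changes against untreated cells reached from -0.76 to 0.07 for Id1 in siLuc and from -0.49 to 0.18 for Id2, so moderate differences were not detectable.

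Id3 was lower in siLuc than in untreated cells. Its level was 23.9, 24.1 and 12.8 CPM in untreated cells, 16.1, 19.2 and 9.80 in siLuc cells and 19.3, 23.4 and 14.2 in siStag3 cells. In every group the Set 3 library was the lowest, and within each set siLuc held the lowest values. The log2 fold change of siLuc against untreated cells was -0.42, or 74.7% of the untreated level (SE 0.0994, adjusted p = 0.0344, edgeR), with -0.45 within Set 1 and -0.38 within Set 3. In siStag3 Id3 did not differ past the threshold from untreated cells (-0.07, SE 0.0982, adjusted p = 0.752). The siLuc call was kept under the GC correction (log2 fold change -0.30, adjusted p = 0.0351) and ended without the set term (adjusted p = 0.637) and in Set 1 alone (adjusted p = 0.0583). It held only without the siLuc library of Set 1 experiment 3 among 6 fits that left out 1 library (adjusted p from 0.0337 to 0.157). In bulk RNA, fewer cells expressing a gene and less RNA per cell cannot be told apart.

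**Figure D3:**
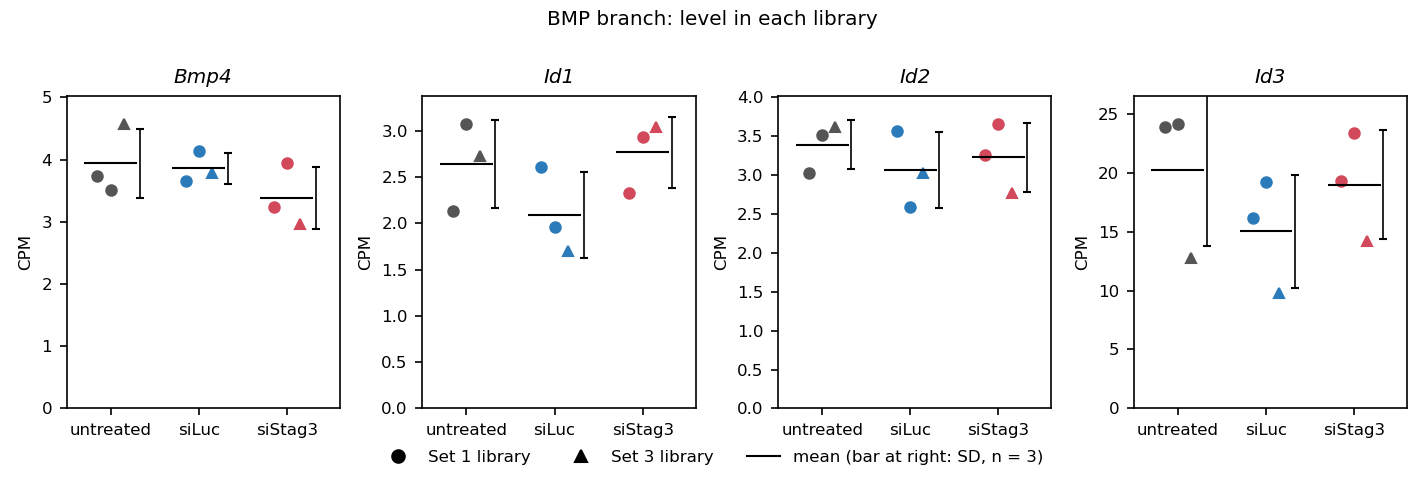
Level in CPM (y axis, from 0) of the 4 genes of the BMP side in each library, with circles for Set 1 and triangles for Set 3, a line at the group mean and a bar for the SD (n = 3). Bmp4, Id1 and Id2 stay under 5 CPM with overlapping groups, and Id3 is lowest in the Set 3 library of every group.

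Counted together, 4 of the 10 genes passed the test in siLuc against untreated cells, 2 higher (Lefty2, Skil) and 2 lower (Smad7, Id3), where 4.2% of all genes passed. In siStag3 against untreated cells 3 passed, all higher (Lefty2, Tdgf1, Skil), where 2.55% of all genes passed. These 2 comparisons share the untreated libraries, so their values stand side by side and are not separate evidence. The median log2 fold change of the 6 Nodal-side genes was 0.01 in siLuc and 0.14 in siStag3, and that of the 4 BMP-side genes -0.25 and -0.07, beside -0.00 and -0.01 for all genes tested. The Nodal-side median near 0 in siLuc comes from 3 genes with a positive and 3 with a negative log2 fold change.

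With a GC correction added to the set term, 3 genes passed in siLuc (Lefty2, Skil and Id3; 7.13% of all genes) and 3 in siStag3 (Lefty2, Tdgf1 and Skil; 6.54%). This correction takes out differences that follow the GC content of a gene, which ran across all genes in these comparisons (Spearman correlation of log2 fold change with GC content across genes of -0.48 and -0.31, a description only, since genes are not independent). Smad7, at 56.9% GC, lost its call, and Skil, at 41.0% GC, moved from 0.50 to 0.33 in siLuc with an adjusted p of 0.000539. The siStag3 fold changes became 0.38 for Lefty2 (adjusted p = 0.00783), 0.27 for Tdgf1 (adjusted p = 0.000466) and 0.28 for Skil (adjusted p = 0.00241), and that of Lefty2 in siLuc 0.39 (adjusted p = 0.00736). Without the set term none of the 10 genes passed in either comparison, where 0.00702% and 0.014% of all genes did. In that fit 2 of the 10 in siLuc and 3 in siStag3 had an unadjusted p under 0.05, beside 1219 and 847 of all 14246 genes.

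**Figure D4:**
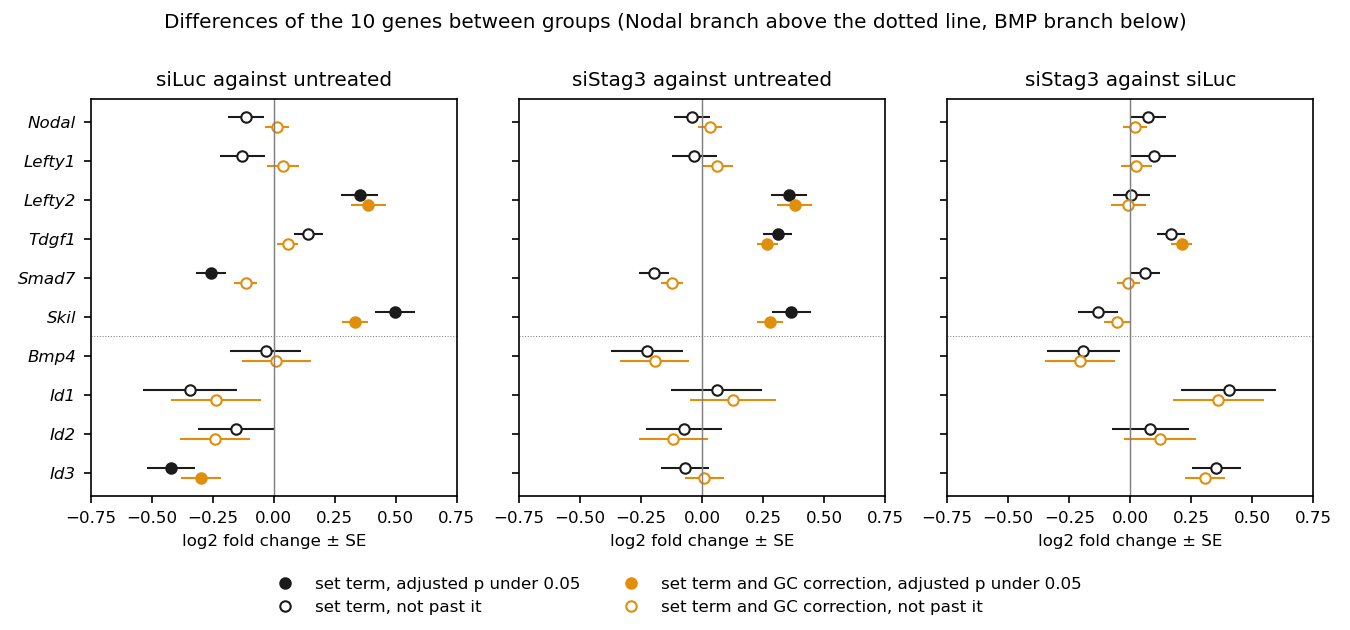
Log2 fold change ± SE (x axis) of the 10 genes (y axis) in the 3 comparisons, from the edgeR fit with the set term (black) and with the GC correction added (orange); filled points have an adjusted p under 0.05. Lefty2 and Skil are filled in both fits against untreated cells in both transfected groups, Smad7 is filled only in the fit without the correction, and Tdgf1 in siStag3 against siLuc only in the fit with it.

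The comparison of siStag3 with siLuc sets the Stag3 siRNA against another transfected siRNA. None of the 10 genes passed in it with edgeR or with the DESeq2 Wald test, where 0.0281% of all genes (4 of 14246) passed with edgeR. Of the 10, 2 had an unadjusted p under 0.05, Id3 and Tdgf1, beside 1122 of all 14246 genes. In siStag3 minus siLuc, Id3 differed by 0.35 (SE 0.101, adjusted p = 0.394, edgeR), with 0.27 within Set 1 and 0.54 within Set 3. The same siLuc libraries enter this value and the Id3 difference from untreated cells. Tdgf1 differed by 0.17 (SE 0.0584, adjusted p = 0.484), with 0.22 within Set 1 and 0.06 within Set 3. With the GC correction Tdgf1 passed (log2 fold change 0.21, SE 0.0425, adjusted p = 0.0305), as did 0.358% of all genes, and Id3 did not (0.31, adjusted p = 0.138). Without the set term no gene of the table passed (0%), and 307 had an unadjusted p under 0.05.

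For the other genes, 95% intervals of the siStag3 against siLuc difference are given from the fit with the set term. That fit takes the difference to be the same in both sets. The intervals ran from -0.08 to 0.23 for Nodal, -0.10 to 0.30 for Lefty1, -0.16 to 0.16 for Lefty2, -0.07 to 0.20 for Smad7 and -0.31 to 0.04 for Skil. On the BMP side they were wider, from -0.51 to 0.13 for Bmp4, -0.02 to 0.82 for Id1 and -0.26 to 0.42 for Id2. Without the set term all these intervals were wider, as from -0.66 to 0.97 for Lefty1 and from -0.58 to 0.60 for Lefty2. Values within sets went in opposite directions for some genes. Nodal differed by -0.04 within Set 1 and 0.28 within Set 3, Lefty1 by -0.06 and 0.38, and Id2 by 0.18 and -0.12. Skil was equal within Set 1 (-0.01) and lower in siStag3 within Set 3 (-0.40). The Set 3 values of Nodal, Lefty1 and Skil lay outside their intervals from the fit with the set term.

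**Figure D5:**
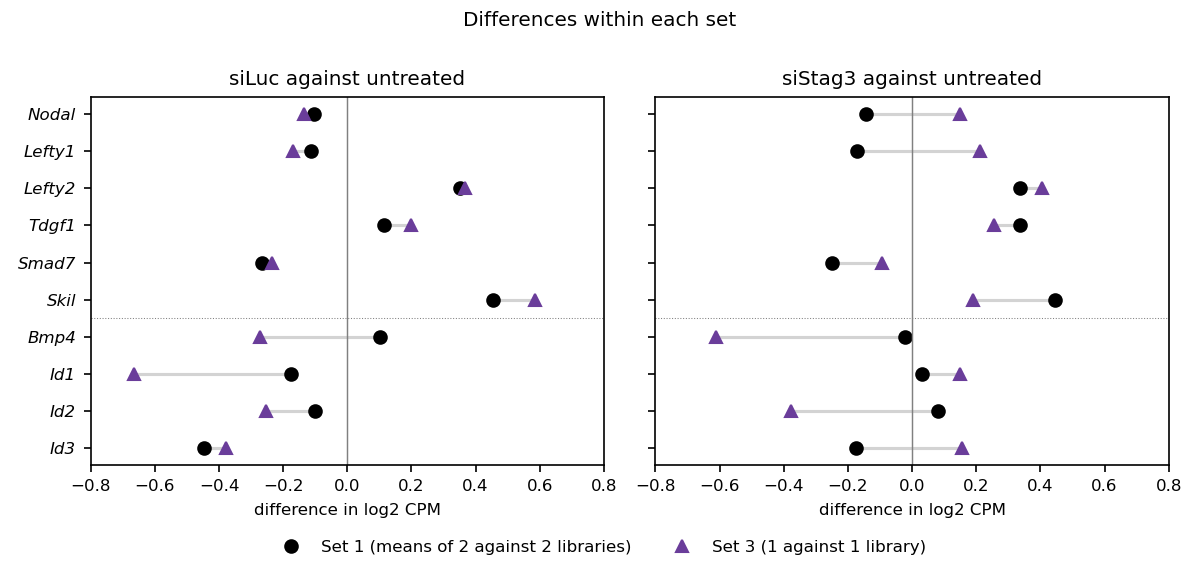
Difference in log2 CPM from untreated cells (x axis) of the 10 genes (y axis) within Set 1 (circles, means of 2 against 2 libraries) and within Set 3 (triangles, 1 against 1 library). In siLuc each gene of the Nodal side has the same sign in both sets, and in siStag3 Nodal, Lefty1, Id2 and Id3 change sign between sets.

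For Lefty1, Lefty2 and Id3 the difference between sets was larger than any difference between groups. Against Set 1, Set 3 libraries were higher in Lefty1 by 0.91 (SE 0.0771, adjusted p = 2.9e-06) and in Lefty2 by 0.65 (SE 0.0631, adjusted p = 7.98e-06, edgeR). Id3 was lower in Set 3 by a log2 fold change of -0.78 (SE 0.0895, adjusted p = 2.87e-05). Skil was lower by -0.27 (adjusted p = 0.0088) and Nodal higher by 0.16 (adjusted p = 0.0477). The remaining 5 did not pass. With 42.7% of all genes past the threshold between sets, 5 of 10 is near the background. The genes of a branch did not all differ the same way. Skil differed opposite to Lefty1 and Lefty2, and Id1 (-0.02, adjusted p = 0.939) and Id2 (-0.05, adjusted p = 0.794) did not pass with Id3.

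Other genes of the pathways were read from lists, chosen with results of these data known. Of 30 other Nodal and Activin genes 29 were in the table and 24 were tested. 1 of the 24 passed in siLuc against untreated cells, near the 4.2% of all genes, namely Furin, a protease that cleaves pro-Nodal, which was lower by a log2 fold change of -0.30 (SE 0.0702, adjusted p = 0.0344, edgeR). With the GC correction Furin did not pass (-0.17, adjusted p = 0.0749). 1 of the 24 passed in siStag3 against untreated cells, where 2.55% of all genes did, namely Inhbb, the beta-B subunit of Activin, at 6.29 CPM against 3.38 (log2 fold change 0.90, SE 0.136, adjusted p = 0.00324). The groups overlapped, and without the set term the Inhbb adjusted p was 0.884. Inhbb was higher by 0.52 in siLuc, just short of the threshold (SE 0.138, adjusted p = 0.0511), and passed there with the GC correction (0.71, adjusted p = 0.00176). Its difference between siStag3 and siLuc was 0.38 (SE 0.133, adjusted p = 0.493). Among the 24, 7 in siLuc and 6 in siStag3 had an unadjusted p under 0.05, beside 3964 and 2417 of all 14246 genes. Their median log2 fold changes were -0.00 and -0.09, beside -0.00 and -0.01.

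Of the 7 receptors listed with the Nodal branch, those of TGF-beta among them, 6 were in the table, all but Acvr1c. Neither these 6 nor Smad2, Smad3 and Foxh1 passed with the set term. On the scale of CPM per kilobase over all libraries, the type I receptors Acvr1b and, of TGF-beta, Tgfbr1 stood at 7.09 and 8.05. The type II receptors Acvr2b and Acvr2a stood at 6.07 and 1.72, Smad2 and Smad3 at 9.20 and 9.54, and Foxh1 at 33.2. Gdf3, a further ligand of the family, was at 53.0 and thus above Nodal at 30.7, whereas Inhba was at 0.0866. The mesendoderm targets Eomes and Mixl1, 0.794 and 0.175 CPM per kilobase, were near the bottom. Eomes passed in siLuc with the GC correction only (0.50, adjusted p = 0.0473).

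Of 30 other BMP genes 28 were in the table and 19 were tested. Twsg1, a secreted BMP-binding protein that acts with Chordin, passed in both comparisons with untreated cells, without overlap between groups. Its mean was 27.9 CPM in untreated cells, 36.5 in siLuc cells and 35.8 in siStag3 cells. The log2 fold change was 0.39 in siLuc (SE 0.0677, adjusted p = 0.00827) and 0.36 in siStag3 (SE 0.0678, adjusted p = 0.0133, edgeR), and the GC correction kept both (0.30 and 0.31). Without the set term the adjusted p was 0.523 and 0.474. No other gene of this list passed with the set term, where 4.2% and 2.55% of all genes passed. With the GC correction Smad1 passed in siLuc (0.25, adjusted p = 0.0347) and the type I receptor Bmpr1a in siStag3 (0.14, adjusted p = 0.0466), where 7.13% and 6.54% of all genes passed. Apart from Bmp4, Bmp7 was the only tested ligand above 1 CPM per kilobase, at 2.05, and Bmpr1a was the receptor with the highest level, at 11.7. The antagonist Nog was at 0.0507 and did not reach the test. Of the other targets, Id4, Dusp9, Smad6 and Bambi were at 4.74, 6.68, 1.95 and 1.76 and none passed. Msx2, at 0.108, did not pass either, and Msx1, at 0.121, did not reach the test.

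The 8 shared regulators, among them Smad4, Ski and the SMURF ligases, held no gene past the threshold with the set term, nor did the 3 E proteins that ID proteins bind. With the GC correction the E proteins Tcf4 and Tcf12 were lower in siLuc (-0.28, adjusted p = 0.000545, and -0.20, adjusted p = 0.0236) and in siStag3 (-0.18, adjusted p = 0.0137, and -0.23, adjusted p = 0.00923). In that fit 7.13% and 6.54% of all genes passed. Before the correction, their siLuc values were -0.11 (adjusted p = 0.321) and -0.09 (adjusted p = 0.38, edgeR). For Tcf4 the uncorrected difference in siLuc was -0.19 within Set 1 and 0.03 within Set 3. None of the genes in these lists passed in siStag3 against siLuc with either fit.

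Markers of other cell states were summed per library, with no test. The summed level of 4 primed or formative markers was 163 to 178 CPM in untreated cells, 184 to 189 in siLuc and 171 to 174 in siStag3. Dnmt3b made up most of this sum, with means of 155, 165 and 150 CPM in untreated, siLuc and siStag3 cells. The other markers were higher in both transfected groups, Otx2 at 15.3, 21.8 and 22.2 CPM. Fgf5 stood at 0.174, 0.347 and 0.322 and Pou3f1 at 0.309, 0.422 and 0.36. The sum of 4 mesoderm markers was 10.1 to 11.2 CPM in untreated cells, 7.73 to 9.88 in siLuc and 7.4 to 8.65 in siStag3. These markers did not all go the same way. In untreated, siLuc and siStag3 cells T had means of 4.81, 2.86 and 2.34 CPM and Eomes 2.5, 3.32 and 2.66. Gsc stood at 3, 2.28 and 2.67 and Mixl1 at 0.469, 0.418 and 0.316. Trophoblast markers summed to 3.73 to 4.35, 3.79 to 4.28 and 2.67 to 3.62 CPM, and those of primitive endoderm to 2.58 to 2.86, 2.46 to 2.93 and 1.62 to 2.39. Both sums also joined markers of opposite direction. Cdx2 had means of 1.4, 0.905 and 0.645 CPM and Elf5 0.848, 1.35 and 0.998. Pdgfra stood at 1.82, 1.72 and 1.3 and Sox7 at 0.173, 0.313 and 0.241. The defining markers of embryonic stem cells overlapped among groups, at 4460 to 4760, 4370 to 4740 and 4410 to 4810 CPM. The part of these cell states in the differences above was not tested.

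For each of the 5 genes that passed in some comparison, the genes most like it across the 9 libraries were sought among the 9060 genes whose mean log2 CPM was 3 or higher, which leaves out Bmp4, Id1 and Id2. Likeness was the root mean square difference of log2 CPM after centring within sets. The nearest to Lefty2 included Pgk1 (0.0663) and S100a10 (0.0745), where the profile of Lefty2 itself had a root mean square of 0.188. Those nearest to Tdgf1 (0.136) were Spp1 (0.0399), Aoah (0.044) and D1Pas1 (0.0452). For Skil (0.227) they were Caap1 (0.0473), Sanbr (0.0578) and Lgr4 (0.0604), for Smad7 (0.121) Myo9b (0.0234), Zfp408 (0.0266) and B4galt5 (0.0269), and for Id3 (0.217) Myo1a (0.0631), Ubxn11 (0.0806) and Trpm1 (0.0818).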

How the data were processed

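RNA of 9 libraries was analysed. The authors deposited 1 table of estimated counts per gene: FastQC, Salmon and DESeq2 and the build GRCm39 are named in the submitters' processing notes, without versions, and the values are whole numbers, taken as rounded Salmon estimates. The annotation release and strand setting are not given in the sources used here. The smallest sum over libraries is 9 counts, so weaker genes are not in the table. Column names give group, set and experiment but no replicate number, so columns were assigned to groups.

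Counts were tested with edgeR 4.0.16 in R 4.3.3 (filterByExpr, TMM, robust quasi-likelihood fit, 1 mean per group and a set term), and 14246 genes were tested. Tests were two-sided. The SE of a log2 fold change is its size divided by the square root of F. The GC correction subtracts the median deviation of genes in each of 20 GC bins per library, with GC content from GENCODE M21, which held 16604 of the 16636 gene IDs. Alternatives were no set term, other scalings, no filter, DESeq2 1.42.0, fewer libraries, and set and experiment as a block. The last, with all Set 3 libraries as 1 block, was chosen after the columns were seen. The procedure was tested on simulated data. The text names all 10 genes, pathway genes past the threshold, and the 3 nearest patterns of each gene that passed, of which 1 is not reported here. The levels of receptors, ligands and targets, and genes that passed only with the GC correction, were added after their values were seen. The genes and lists were chosen with earlier results of these data known.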

Additional observations from a re-analysis of the deposited data

How the results depend on the processing

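No paired analysis was possible by replicate number, because the column names hold none of the replicate numbers of the labels. A block on the set and experiment that they do hold, chosen after the columns were seen, was fitted instead. Set 1 experiment 1, Set 1 experiment 3 and Set 3 experiment 5 each hold an untreated and a siStag3 library, so this block matches those groups. The siLuc libraries are matched in Set 1 only, because their Set 3 library is of experiment 1. Without the set term 0, 1 and 2 genes passed in siStag3 against siLuc, siLuc against untreated and siStag3 against untreated, in place of 4, 598 and 363, and 0 of the 10 genes passed in each, in place of 0, 4 and 3. The GC correction gave 51, 1016 and 932 genes and 1 of the 10 in siStag3 against siLuc. The DESeq2 Wald test gave 22 and 1337 genes in the first and second comparison, and only the 6 libraries compared 1 and 1801. Set 1 alone gave 298 genes and 1 of the 10 in siLuc and 949 genes in siStag3 against untreated. Set and experiment as a block gave 317 genes in siLuc, and ended the calls of Smad7 in siLuc and Skil in siStag3.

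Leaving out 1 library gave 0 to 4, 111 to 388 and 78 to 1591 genes, and 0, 1 to 2 and 0 to 4 of the 10. The highest count, 1591, came without the siStag3 library of Set 3. With fewer libraries the spread is estimated from fewer samples.

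Of 270 log2 fold changes of single genes under the other alternatives, 240 kept direction and side of the threshold, 15 kept only direction with the call lost, 1 gained it and 14 changed sign. Leaving out 1 library gave 133, 28, 1 and 18 of 180. None of the 32 that changed sign was past the threshold in the fit with the set term, and the cause was not tested. Against untreated, siLuc values became 0.112 (Set 1 alone) and 0.0113 (GC correction) for Bmp4, 0.0384 for Lefty1 and 0.0149 for Nodal (both GC correction). In siStag3 they became 0.0807 for Id2 (Set 1 alone), 0.0173 without the set term and 0.0631 with the GC correction for Lefty1, 0.00905 for Id3 and 0.0342 for Nodal (both GC correction). Against siLuc, Set 1 alone gave -0.0625 for Lefty1, -0.0143 for Lefty2 and -0.0369 for Nodal, and the GC correction -0.00759 for Lefty2 and -0.00899 for Smad7. Without 1 library, values that changed sign ranged from -0.113 to 0.146 for Bmp4 in siLuc against untreated. In siStag3 against untreated they ranged from -0.0836 to 0.189 for Id1, -0.165 to 0.0542 for Id2, -0.159 to 0.0473 for Id3, -0.177 to 0.0675 for Lefty1 and -0.142 to 0.0366 for Nodal. Against siLuc they ranged from -0.0447 to 0.211 for Id2, -0.0489 to 0.194 for Lefty1, -0.0230 to 0.0514 for Lefty2 and -0.0290 to 0.148 for Nodal. Depth limits Bmp4, Id1 and Id2 most, at 54 to 211 counts per library.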
